A study of Mus musculus with 51 samples.

Results

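Alveolar macrophages of mice without a working phagocyte oxidase and of normal mice were compared for how their transcripts changed 4 h after the higher of the study's doses of fungal spores was placed in the lung. The difference between the genotypes in that change was taken as (KO with e7 conidia minus KO mock) minus (WT with e7 conidia minus WT mock), all on log2 signal. WT stands for C57Bl/6 mice and KO for gp91phox-/- mice. The comparison takes its means from 14 of the 51 arrays of the series, chosen by their titles and all collected at 4 h. They are 4 WT arrays with e7 conidia, 4 WT mock arrays, 3 KO arrays with e7 conidia and 3 KO mock arrays. Errors and p-values pool the spread over all 51 arrays in 15 groups. The other groups are untreated macrophages, mock and both doses at 2 h, and e6 conidia at 4 h, each in both genotypes, and WT with beads at 4 h. The conidia were those of Aspergillus fumigatus, instilled into living mice, and the stated purpose was to see whether macrophages of an immune-compromised host respond differently and whether this bears on invasive aspergillosis. The labels name each array a biological replicate and give neither the number, age nor sex of the mice behind it, so the p-values measure the spread between arrays as labelled. The titles give the doses as e6 and e7 and nothing on what the mock inoculum was. The treatment text of the WT 4 h mock arrays speaks of conidia while their titles say mock, and the titles were followed.

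Alveolar macrophages are the resident phagocytes of the airspaces and take up inhaled conidia before neutrophils arrive. They sense the fungal wall through receptors such as Dectin-1 and through Toll-like receptors, and answer with chemokines and cytokines that call in neutrophils. The phagocyte NADPH oxidase passes electrons to oxygen and makes superoxide; gp91phox, encoded by Cybb, is its membrane subunit with the electron path, and people or mice that lack it have chronic granulomatous disease and are prone to Aspergillus infection. Oxidants from this enzyme also act on signalling and stress pathways in the cell that makes them.

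Arrays have no read depth, and precision here rests on how many arrays a group has and on the spread pooled over 15 groups. Cybb on the WT arrays lay between 11.04 and 12.12 and on the KO arrays between 7.68 and 9.06 with no overlap, in the direction that the genotype labels give. The defining markers of alveolar macrophages were high on all 14 arrays: Siglecf lay between 11.64 and 12.68, Marco between 12.26 and 13.33 and Chil3 between 13.75 and 14.55. Markers of other cells ranged from dim to bright over the 14 arrays: S100a8 lay between 7.33 and 13.75, Csf3r between 7.81 and 10.48, Sftpc between 7.62 and 10.33 and Scgb1a1 between 6.97 and 11.71, while the T cell gene Cd3e lay between 2.38 and 5.34. The mean of 14 neutrophil markers stood at 8.39 on WT mock array 3 and 7.28 on WT e7 array 3 against 4.72 to 5.59 on the other 6 WT arrays. It stood at 6.71 on KO mock array 2 against 5.19 to 5.75 on the other KO arrays. The median signal, not in log2, was 68.5 to 87.7 on the WT arrays and 90.7 to 104.3 on the KO arrays. On the axis that held 19.6% of the variance the WT arrays lay between 11.1 and 100.8. The KO arrays lay between -79.1 and -31.3, so the axis parted the genotypes. WT e7 arrays 2 and 3 also stood apart on it, at 84.1 and 100.8 against 49.7 and 21 for arrays 1 and 4. Their log2 ratios of 3' to 5' control signals, which rise when RNA is short, were 2.34 and 3.83, against 1.64 and 1.26 on WT e7 arrays 1 and 4 and 0.93 to 1.18 on the KO e7 arrays. The mock arrays ranged from 1.19 to 2.34 in WT and from 1.41 to 2.61 in KO. How much of any result these features carry was not tested, except where a value without an array, with the ratio as a covariate or with quantile normalization is given. In a bulk sample, fewer cells of a type and less RNA per cell cannot be told apart.

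The genotype difference in the response passed an adjusted p under 0.05 (limma, Benjamini-Hochberg over 22626 probe sets) at 43 probe sets, 0.19% of those tested, 22 (0.0972%) with a difference above 0 and 21 (0.0928%) below. Among genes read by their brightest probe set, the differences were led by Klhl21, Gdap10, Hyou1, Midn and Procr, which rose in WT and did not pass the threshold in KO, and by Dapk3, Eri3 and Tubgcp2, which fell in WT and did not pass in KO. Probe sets that were not the brightest of their gene, named after their values were seen, reached further: Gpr85 at -3.59, Sae1 at 3.07, Gca at -2.69 and Shmt2 at 2.39 (-0.17, 1.23, -2.69 and 2.05 with signals under 50 set to 50). At an unadjusted p under 0.05 there were 3879 probe sets. Setting signals under 50 to 50, which removes changes among dim probe sets, raised the count to 274 (1.21%), 143 above and 131 below, and 42 of the 43 were among them. The groups behind this difference were uneven: WT e7 against mock gave 3512 called probe sets (15.5%; 1321 higher, 2191 lower), and KO e7 against mock gave 1 (0.00442%), with 1587 at an unadjusted p under 0.05. The single KO call, chosen after its values were seen, was Man2c1os, a dim antisense RNA that went from a mean of 4.46 to 1.05 and did not differ with signals under 50 set to 50. With that floor the KO count was 71 (0.314%). The WT count was 1964, 1622 and 5305 without WT e7 array 2, 3 or 4, and the KO count was 8, 13 and 12 without KO mock arrays 1 to 3, 5 and 3 without KO e7 array 1 or 3, and 2 without WT mock array 2 or 3.

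All 22 probe sets with a difference above 0 had fallen in mean in WT, and all 21 with a difference below 0 had risen in mean there. Among the 43, 40 were called in the WT comparison and 0 in the KO comparison, where 15 had an unadjusted p under 0.05. The KO mean moved the opposite way to the WT mean at 39 of the 43. Since a large difference was what chose these probe sets, the opposed signs describe them and support nothing further. For the 22 the median change was -1.0 in WT and 0.46 in KO, and for the 21 it was 1.22 in WT and -0.30 in KO. The WT e7 arrays all lay on one side of the WT mock arrays at 32 of the 43, where 9.67% of all probe sets did so, and the KO arrays separated at 21, where 16.3% of all did so. The same arrays chose the 43, so these counts only describe them as well. Groups of 4 and of 3 arrays separate by chance at unlike rates, so the WT and KO shares cannot be set against each other.

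**Figure D1:**
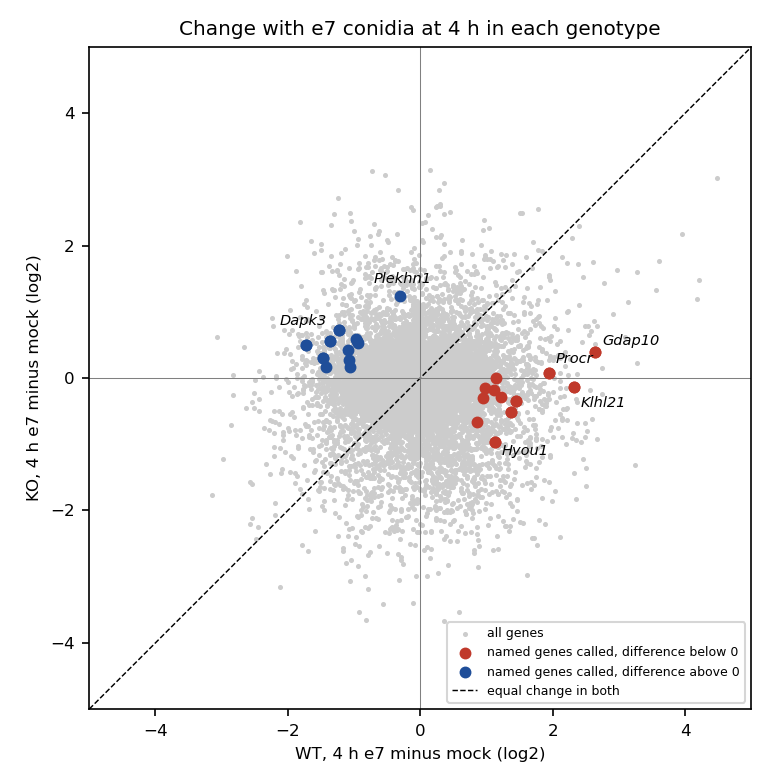
Each grey point is 1 of 12393 genes, with the log2 change from mock to e7 conidia at 4 h in WT (4 against 4 arrays) across and in KO (3 against 3 arrays) upwards; the dashed line marks an equal change. The 24 named genes called in the genotype difference lie off the line, Klhl21 at 2.33 in WT and -0.13 in KO, and Dapk3 at -1.73 and 0.50.

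Klhl21 encodes an adaptor of a cullin-3 ubiquitin ligase that works in cell division. Its log2 signal on the WT mock arrays 1 to 4 was 7.69, 7.51, 7.48 and 7.93, and on the WT e7 arrays 9.62, 10.74, 10.91 and 8.63. On the KO mock arrays it was 8.16, 8.18 and 8.17, and on the KO e7 arrays 8.09, 8.11 and 7.91. All WT e7 arrays lay above all WT mock arrays, while every KO e7 array lay below every KO mock array by a small margin. Klhl21 rose by 2.33 ± 0.27 (SE) in WT (adjusted p = 4.71e-07) and changed by -0.13 ± 0.31 in KO (adjusted p = 0.971), a difference of -2.46 ± 0.41 between the genotypes (limma, adjusted p = 0.00829), or 5.48-fold.

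Procr encodes the endothelial protein C receptor, an anticoagulant and cytoprotective receptor. Its WT mock arrays read 6.68, 7, 7.34 and 6.88 and its WT e7 arrays 9.26, 8.97, 9.47 and 7.94, so that all WT e7 arrays were above all mock arrays. The KO mock arrays read 8.31, 8.48 and 8.01 and the KO e7 arrays 7.98, 8.71 and 8.34, which overlap. Procr was thus already high in KO macrophages without conidia: the KO mock level exceeded the WT mock level by 1.29 ± 0.24 (adjusted p = 0.00097). It rose by 1.94 ± 0.22 in WT (adjusted p = 4.09e-07) and changed by 0.08 ± 0.25 in KO, and the difference in response was -1.86 ± 0.33 (limma, adjusted p = 0.0098).

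The promoters of Klhl21 and Procr are shown because, of the 13 called genes with a difference below 0, these were the ones whose promoter held a match to the AP-1 motif TGANTCA, here in capitals. The sequences are RefSeq's for GRCm38.p6, from 250 bases before to 50 after the start of the gene, 5' to 3' on the gene's strand, and lie at chr4:152008641-152008940 (plus strand) and chr2:155750967-155751266 (plus strand).

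Klhl21: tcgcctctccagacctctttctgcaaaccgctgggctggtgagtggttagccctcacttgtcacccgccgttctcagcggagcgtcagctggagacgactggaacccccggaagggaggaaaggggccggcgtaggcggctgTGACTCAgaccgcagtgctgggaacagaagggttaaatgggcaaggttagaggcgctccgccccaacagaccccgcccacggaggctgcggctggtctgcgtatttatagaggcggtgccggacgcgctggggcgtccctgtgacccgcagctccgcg
Procr: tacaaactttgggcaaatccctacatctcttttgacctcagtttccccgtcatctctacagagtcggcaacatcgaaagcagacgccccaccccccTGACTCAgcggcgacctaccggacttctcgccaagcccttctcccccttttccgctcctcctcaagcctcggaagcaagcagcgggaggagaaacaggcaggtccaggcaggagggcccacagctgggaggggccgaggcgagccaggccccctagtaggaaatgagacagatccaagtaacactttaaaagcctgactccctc

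The match began 108 bases before the start of Klhl21 and 154 bases before that of Procr. Promoters were found for 11 of the 13 genes, and 2 of the 11 held the motif on either strand, against 7.81% of all 32851 promoters. Of the 11 matched promoters among the 14 genes with a difference above 0, 0 held it. A match is a run of letters and not a bound site. The cAMP response element TGACGTCA, in 1.79% of all promoters, was in that of Dapk3. The antioxidant element TGACNNNGC, in 12.4%, was in those of Msl1, Procr, Dapk3 and Scfd1. In Procr this match takes in the AP-1 match, so the 2 are not separate sites. The motifs of endoplasmic reticulum stress, heat shock and NF-kB were also searched, and 0 of the matched promoters in either direction held them.

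Orai1 forms the pore of the store-operated calcium channel of the plasma membrane. It read 8.71, 8.98, 8.49 and 8.69 on WT mock, 9.69, 9.72, 10.01 and 8.9 on WT e7, 8.94, 8.94 and 9.16 on KO mock and 8.28, 8.34 and 8.43 on KO e7 arrays. WT e7 array 4 lay within the WT mock range and the other 3 lay above it, while all KO e7 arrays were below all KO mock arrays. The rise in WT was 0.86 ± 0.17 (adjusted p = 0.000777), the KO change was -0.66 ± 0.20 (adjusted p = 0.334), and the difference was -1.52 ± 0.26 (limma, adjusted p = 0.00829). The other probe set of Orai1 had a difference of 0.59, of the opposite sign and not called.

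Hyou1, a chaperone of the endoplasmic reticulum, had a mean of 10.33 on WT mock and 11.45 on WT e7 arrays, and of 11.35 on KO mock and 10.39 on KO e7 arrays. The WT e7 arrays (10.96 to 12.03) lay above the WT mock arrays (9.92 to 10.67), and in KO the e7 arrays (10.08 to 10.96) overlapped the mock arrays (10.93 to 11.99). Its difference was -2.09 ± 0.45 (limma, adjusted p = 0.0451), made of a WT rise of 1.13 ± 0.30 and a KO change of -0.97 ± 0.34 that missed the threshold (adjusted p = 0.491). Of its 3 probe sets 1 was called and another was of opposite sign at 1.01. Midn, whose product midnolin carries nuclear proteins to the proteasome, had a difference of -1.88 ± 0.37 (adjusted p = 0.038), with WT mock arrays at 6.33 to 7.01, WT e7 at 7.19 to 8.69, KO mock at 7.34 to 8 and KO e7 at 7.12 to 7.37. As for Procr, its KO mock level was above the WT mock level, by 1.04 ± 0.26 (adjusted p = 0.0189).

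Nampt encodes the rate-limiting enzyme of NAD salvage. It read 11.31, 11.1, 11.31 and 11.34 on WT mock, 12.32, 12.48, 12.79 and 12.04 on WT e7, 11.95, 12.19 and 11.98 on KO mock and 11.91, 11.99 and 12.21 on KO e7 arrays. Nampt rose by 1.14 ± 0.17 in WT against a KO change of -0.004 ± 0.20. WT e7 array 4 lay within the range of the KO arrays, and the other WT e7 arrays lay above it. The difference was -1.15 ± 0.26 (limma, adjusted p = 0.0494), and the KO mock arrays were above the WT mock arrays by 0.78 ± 0.18 (adjusted p = 0.0114). Gdap10 lies inside the Nampt gene in RefSeq, so its signal and that of Nampt may not be separate. Gdap10 had a difference of -2.25 ± 0.40 (adjusted p = 0.00897), with WT mock at 8.53 to 8.85, WT e7 at 10.49 to 12.29, and overlapping KO arrays at 8.23 to 9.38.

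Of the other named genes with a difference below 0, Msl1, the scaffold of a histone acetyltransferase complex, had a difference of -1.80 ± 0.38 (adjusted p = 0.0445) and was the gene among these with the widest WT e7 arrays, 10.19 to 12.31, against 9.69 to 9.99 on WT mock. Prpf38b, a splicing factor, differed by -1.52 ± 0.32, Tardbp, the RNA-binding protein TDP-43, by -1.30 ± 0.27, and Eif4a2, a helicase of translation initiation, by -1.13 ± 0.26. Ascc2, a subunit of the activating signal cointegrator complex, differed by -1.25 ± 0.29. Each of these 5 rose in WT, by 0.95 (Ascc2) to 1.45 (Msl1), and had a KO change between -0.35 and -0.15 that missed the threshold. Their adjusted p for the difference lay between 0.044 and 0.0494 in limma, close to the threshold.

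**Figure D2:**
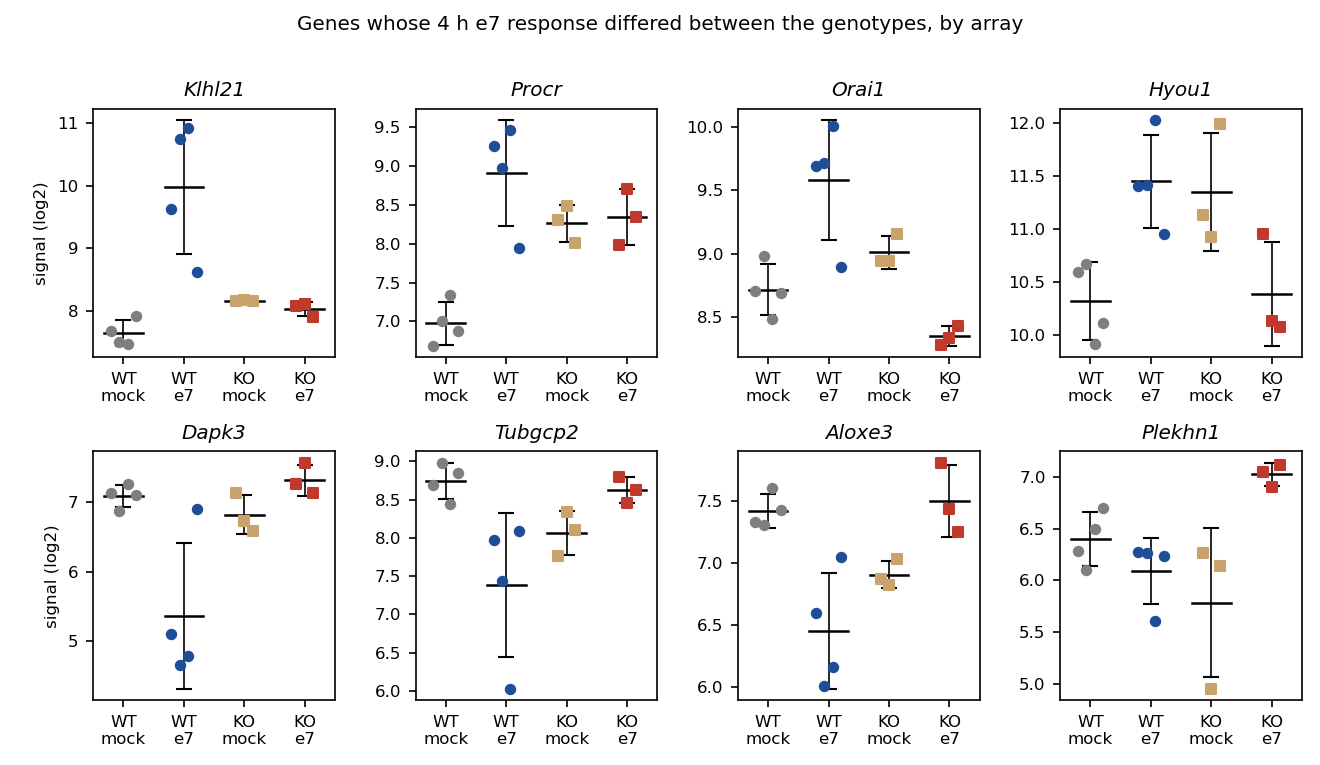
Log2 signal of 8 called genes on each of the 14 arrays at 4 h: points are arrays (WT n = 4, KO n = 3 a group), bars the mean and whiskers the SD. In the upper row the WT e7 arrays are above the WT mock arrays for Klhl21, Procr and Hyou1, and 3 of 4 are for Orai1; in the lower row Dapk3, Tubgcp2 and Aloxe3 fall in WT, and Plekhn1 is highest on the KO e7 arrays.

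Dapk3, a death-associated protein kinase, led the genes with a difference above 0. Its WT mock arrays read 7.14, 6.88, 7.26 and 7.1 and its WT e7 arrays 5.11, 4.65, 4.79 and 6.91. The KO mock arrays read 7.13, 6.73 and 6.59 and the KO e7 arrays 7.26, 7.57 and 7.13. WT e7 array 4 stayed within the WT mock range while the other 3 were well below it, and in KO the groups just met. Dapk3 fell by 1.73 on the log2 scale in WT (SE 0.30; adjusted p = 0.000227) and changed by 0.50 ± 0.35 in KO, and the difference was 2.23 ± 0.46 (limma, adjusted p = 0.044). With signals under 50 set to 50 the difference was 1.63, since part of the WT e7 signal was below 50.

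Tubgcp2, a subunit of the gamma-tubulin complex, read 8.69, 8.98, 8.44 and 8.85 on WT mock, 7.97, 7.44, 6.03 and 8.09 on WT e7, 7.76, 8.34 and 8.1 on KO mock and 8.79, 8.45 and 8.63 on KO e7 arrays. The WT groups did not overlap, nor did the KO groups, and they moved opposite ways. Its difference was 1.92 ± 0.39 (limma, adjusted p = 0.0389). Aloxe3, a lipoxygenase, separated likewise in both genotypes, with WT mock at 7.31 to 7.61 and WT e7 at 6.01 to 7.05, KO mock at 6.82 to 7.03 and KO e7 at 7.25 to 7.81. Its difference of 1.56 ± 0.29 had the smallest adjusted p of the named genes above 0 (0.0192). Actr8, a subunit of the INO80 chromatin remodeller, differed by 1.48 ± 0.30 (adjusted p = 0.0389), with WT mock at 8.09 to 8.43, WT e7 at 6.72 to 8.04, KO mock at 7.85 to 8 and KO e7 at 8.31 to 8.7.

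Of the other named genes above 0, Eri3, an exoribonuclease, differed by 1.94 ± 0.43, Psmd8, a lid subunit of the proteasome, by 1.52 ± 0.35, and Mybbp1a, a nucleolar protein, by 1.35 ± 0.31. Rab1b and Scfd1, both of transport from the endoplasmic reticulum to the Golgi, differed by 1.52 ± 0.34 and 1.22 ± 0.26, Letmd1, a protein of the inner mitochondrial membrane, by 1.77 ± 0.39, and C1ra, a complement protease, by 1.59 ± 0.35. All 7 fell in WT, by 0.956 (Rab1b) to 1.463 (Letmd1) on the log2 scale, and their adjusted p for the difference lay between 0.0451 and 0.0494. For Psmd8 the WT mock arrays lay between 10.34 and 10.48 and the WT e7 arrays at 9.48, 8.95, 8.52 and 10.36, so that array 4 was again within the mock range. Plekhn1 was the exception to the pattern: WT changed by -0.30 ± 0.22 (adjusted p = 0.406), and its KO e7 arrays, at 7.05, 6.9 and 7.12, were above all other arrays of the 14, the KO mock arrays reading 6.26, 4.95 and 6.14. Its KO change of 1.24 ± 0.25 missed the threshold (adjusted p = 0.088) and passed with signals under 50 set to 50, at 1.01 (adjusted p = 0.0247), and its difference was 1.55 ± 0.34 (adjusted p = 0.0451).

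The remaining genes called by their brightest probe set were outside the naming rule and chosen after their values were seen: Nufip1 and Agfg2 above 0, at 0.98 and 0.90, and Parp14 below 0, at -1.13. Of the genes behind the 43 probe sets, 24 had several probe sets on the array, and in 10 of these all had the same sign. In 0 of the 24 were all called. Dapk3, Eri3, Ascc2, Orai1, Hyou1, Tardbp and Msl1 each had another probe set of opposite sign, at 0.23 for Tardbp and 0.15 for Msl1. Mybbp1a and Scfd1 each had another of the same sign, reaching 2.12 and 1.2. Nampt and Prpf38b also had another of the same sign, smaller and not called, at -0.305 and -0.379.

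With signals under 50 set to 50, further genes passed. Above 0 these included Naglu and Galns, lysosomal enzymes that break down glycosaminoglycans, at 1.79 and 1.75 (adjusted p = 0.044 and 0.0484 with that floor), Chaf1b, of the chromatin assembly factor, at 1.83, Med8, of the Mediator complex, at 1.62, and Necap2, of clathrin vesicles, at 1.61. Lrrc8c, a subunit of volume-regulated anion channels, was at 1.66, Dnmbp, a scaffold for membrane and actin, at 1.65 and Mlf2 at 1.61. Naglu read 9.28, 9.32, 9.08 and 9.55 on WT mock and 8.24, 7.34, 6.4 and 9.3 on WT e7 arrays, and 9.79 to 10.73 on the 6 KO arrays. Here too WT e7 array 4 was within the mock range and array 3 was the lowest. Below 0 the floor added Fam214b at -1.96, Ereg at -1.86, Gpr85 at -1.75, Slc35a2, the Golgi transporter of UDP-galactose, at -1.64 and Rnf157, a ubiquitin ligase, at -1.58. It also added Rusc2 at -2.31, which read 7.88 to 8.07 on KO mock and 4.05 to 6.72 on KO e7 arrays, and 4.12 to 7.5 over the 8 WT arrays. A further, dim probe set of Gpr85 was among the 43 at -3.59 and stood at -0.17 with the floor. Naglu, Galns, Chaf1b, Med8, Necap2, Mlf2, Fam214b, Slc35a2 and Rnf157 had the same difference without the floor, to the digits given. For these the floor changed the adjusted p and not the difference. Without the floor the 14 genes had adjusted p between 0.0523 and 0.131. Of the 14, 13 passed without WT e7 array 4 and 10 without WT e7 array 1. Over all 12393 genes, 1475 and 142 passed in these fits.

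None of the 26 gene lists, 460 measured members in all, held a gene called in the genotype difference, against 0.218% of all genes. Over all 12393 genes the median difference was 0.02, 51.2% were above 0, and 2282 (18.4%) had an unadjusted p under 0.05. With the floor at 50, Maff, Ereg, Bub1b and Ndufs1 were called, where 1.43% of all genes were. Lists are therefore given by their counts and medians. Followed through the leave-one-out fits were 57 uncalled genes, 14 of them named because they passed with the floor. Of the 57, 34 passed without WT e7 array 4, 12 without WT e7 array 1 and 2 without WT mock array 3. Over all 12393 genes the counts in these fits were 1475, 142 and 9. Without any other 1 array, 0 of the 57 passed.

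Among 24 measured chemokines 15 were below 0 (median -0.39; -0.14 with the floor; 3 with an unadjusted p under 0.05), and among 18 cytokines 11 were (median -0.11; 0 with the floor; 1). Cxcl1, a chemokine for neutrophils, read 5.74, 4.2, 8.6 and 5.55 on WT mock, 10.64, 10.7, 10.43 and 10.24 on WT e7, 6.01, 5.49 and 6.05 on KO mock and 8.88, 8.53 and 9.23 on KO e7 arrays. In both genotypes all e7 arrays were above all mock arrays, and all WT e7 arrays were above all KO e7 arrays. Cxcl1 rose by 4.48 ± 0.51 in WT (adjusted p = 4.09e-07), and its KO change of 3.03 ± 0.58 missed the threshold (adjusted p = 0.0837). The difference in response was -1.45 with a 95% interval from -3.01 to 0.11 (limma, adjusted p = 0.335), or -2.31 without WT mock array 3 and -0.84 without WT mock array 2, neither of them called, and on the e7 arrays alone KO was lower by 1.62 ± 0.55 (adjusted p = 0.0376).

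Tnf read 6.54, 6.62, 8.14 and 6.93 on WT mock, 10.29, 9.28, 9.37 and 10.39 on WT e7, 8.3, 7.75 and 8.31 on KO mock and 9.7, 9.12 and 9.88 on KO e7 arrays. The e7 groups overlapped, and the KO mock arrays were above 3 of the 4 WT mock arrays. Tnf rose by 2.78 ± 0.35 in WT (adjusted p = 3.57e-06), its KO change was 1.44 ± 0.41 (adjusted p = 0.283), and the difference of -1.33, 95% interval -2.42 to -0.25, did not pass (limma, adjusted p = 0.188). Cxcl2 had a difference of -1.78 (95% interval -3.90 to 0.35). Its WT mock array 3 read 13.86, as high as the WT e7 arrays (13.29 to 13.87), while the other WT mock arrays read 7.78 to 8.71. Il1b and Ccl3 stood high on the same mock array, at 13.45 and 12.29, and this array also had the highest neutrophil marker mean. Without it the difference of Cxcl2 was -3.20 and passed (limma, adjusted p = 0.0329), that of Il1b went from -1.29 to -2.73 (adjusted p = 0.122) and that of Ccl3 from -0.86 to -2.14 (adjusted p = 0.0901). At the other end they were -1.17 for Cxcl2 without WT mock array 4, -0.62 for Il1b without KO mock array 2 and -0.40 for Ccl3 without WT mock array 2, none of them called.

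Il1a, the alarmin interleukin-1 alpha, had nearly the same change in both genotypes. It read 8.45, 7.93, 9.77 and 8.52 on WT mock, 9.98, 10.27, 10.73 and 10.44 on WT e7, 8.96, 9.79 and 9.23 on KO mock and 10.79, 11.13 and 11.05 on KO e7 arrays, and the e7 arrays lay above the mock arrays in both genotypes. The change was 1.69 ± 0.34 in WT and 1.66 ± 0.40 in KO. The 95% interval of the difference ran from -1.09 to 1.04, so a difference of either sign inside that range remained possible. Clec7a, which encodes Dectin-1, had a difference of -0.12 (95% interval -0.51 to 0.27) and lay between 13.41 and 13.94 on all 14 arrays.

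**Figure D3:**
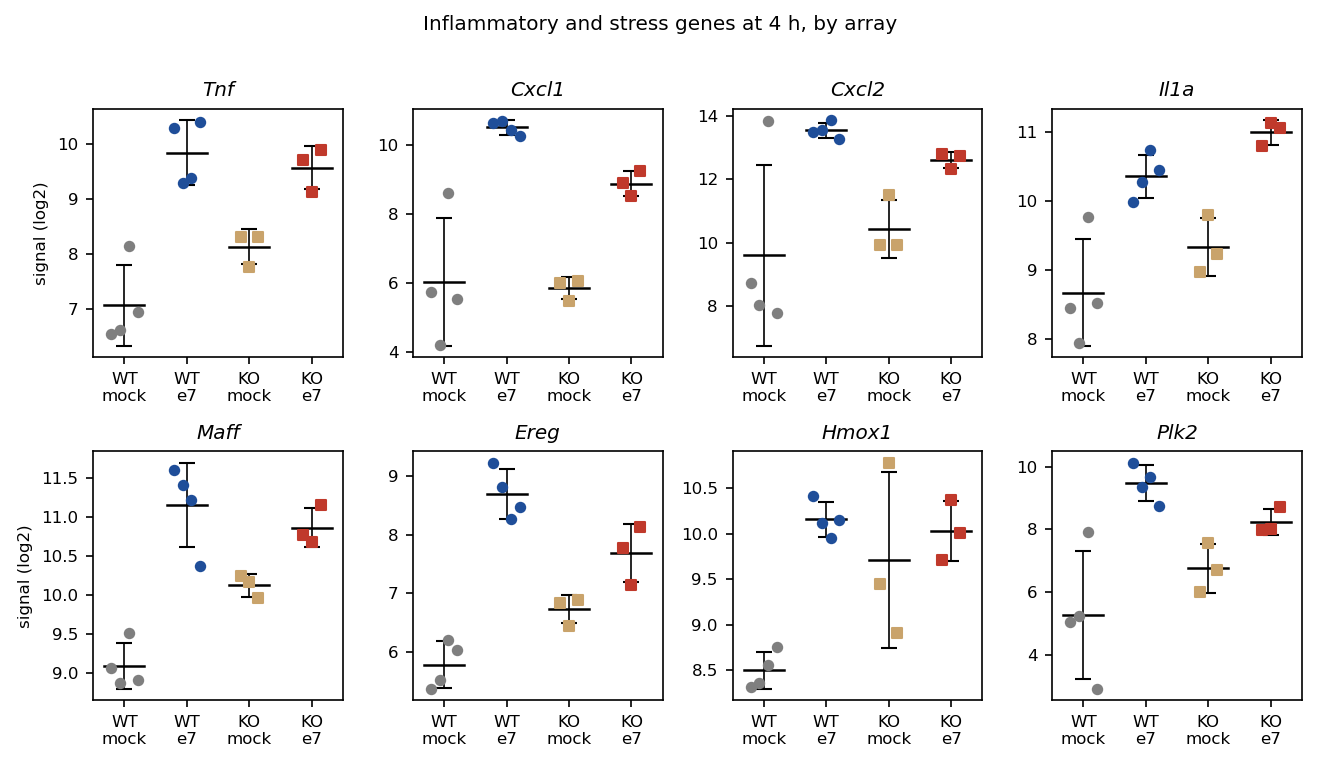
Log2 signal of 8 inflammatory and stress genes on each of the 14 arrays at 4 h (points; bars are means and whiskers SD; WT n = 4, KO n = 3 a group). For Cxcl1 and Il1a all e7 arrays lie above the mock arrays in both genotypes, and WT mock array 3 stands high for Cxcl1 (8.6) and Cxcl2 (13.86).

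Among genes of stress and growth factor signalling, several had KO mock levels above those of WT mock. Maff, a small Maf transcription factor, read 9.07, 8.87, 9.51 and 8.92 on WT mock, 11.6, 11.41, 11.22 and 10.37 on WT e7, 10.24, 10.17 and 9.96 on KO mock and 10.77, 10.68 and 11.15 on KO e7 arrays. The KO mock arrays were above all WT mock arrays, by 1.04 ± 0.23 on average (adjusted p = 0.00547). The difference in response was -1.32 ± 0.32 (limma, adjusted p = 0.0573; 0.0316 with the floor). Ereg, the growth factor epiregulin, read 5.37, 5.52, 6.21 and 6.03 on WT mock, 9.23, 8.82, 8.27 and 8.47 on WT e7, 6.84, 6.45 and 6.89 on KO mock and 7.78, 7.15 and 8.14 on KO e7 arrays. All WT e7 arrays were above all KO e7 arrays, and the difference was -1.96 ± 0.52 (adjusted p = 0.0671; 0.0228 with the floor). Maff and Ereg both passed without WT e7 array 4, at -1.58 and -2.03.

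Plk2, a stress-induced polo-like kinase, had a difference of -2.73 (95% interval -4.77 to -0.68; adjusted p = 0.155), with WT mock arrays spread from 2.91 to 7.91. Egr1, an immediate-early factor, differed by -1.67 (95% interval -3.20 to -0.15; adjusted p = 0.243). Without WT mock array 3 the difference of Egr1 was -2.60 and passed (limma, adjusted p = 0.0369). Cflar, an inhibitor of caspase-8, differed by -1.01 ± 0.28 (adjusted p = 0.0756), and by -1.11 without WT e7 array 4, which passed (adjusted p = 0.0101). Of 23 immediate-early factors 13 were below 0 (median -0.10), and of 18 EGF receptor ligands and stress kinases 9 were (median -0.11; 0.18 with the floor). The share below 0 was 48.8% over all genes.

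The NRF2 and antioxidant list had 13 of 18 measured members below 0 (median -0.32; 6 with an unadjusted p under 0.05). Hmox1, heme oxygenase-1, read 8.32, 8.36, 8.56 and 8.76 on WT mock, 10.41, 10.12, 9.95 and 10.15 on WT e7, 9.45, 10.78 and 8.91 on KO mock and 9.71, 10.37 and 10.01 on KO e7 arrays. It rose in WT by 1.66 ± 0.31 (adjusted p = 0.00036) and changed by 0.32 ± 0.35 in KO, whose mock arrays were above those of WT by 1.21 ± 0.33 (adjusted p = 0.0278). Its difference was -1.34 ± 0.47 (limma, adjusted p = 0.131), and -0.80 without KO mock array 2, the one at 10.78 (adjusted p = 0.358). Gsr, glutathione reductase, differed by -1.10 ± 0.37 (adjusted p = 0.12), with WT e7 array 4 at 10.86 and the other WT e7 arrays at 12.05 to 12.61. Without array 4 the difference of Gsr was -1.48 and passed (limma, adjusted p = 0.00152). Txnrd1, thioredoxin reductase, changed by 1.07 in WT and 0.84 in KO, and Nfe2l2, which encodes NRF2, by 0.20 and -0.08.

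Heat shock and unfolded protein genes were below 0 for 18 of 22 measured members (median -0.52, the same with the floor; 9 with an unadjusted p under 0.05). Hyou1, described above, was not on this list. Dnajb1, a cochaperone of Hsp70, differed by -1.84 ± 0.51 (limma, adjusted p = 0.0741), with WT mock arrays at 10.44 to 10.91, WT e7 at 11.24 to 13.47, and KO arrays between 10.5 and 10.94 in both states. Hsph1 differed by -1.30 ± 0.43 (adjusted p = 0.113) and Hsp90aa1 by -0.72 ± 0.23 (adjusted p = 0.104). Without WT e7 array 4 Dnajb1 and Hsp90aa1 passed, at -2.24 and -0.84. Hspa5, the main chaperone of the endoplasmic reticulum, differed by -0.53 ± 0.17 (adjusted p = 0.113), with KO mock arrays at 13.98, 13.79 and 13.74 and KO e7 arrays at 13.45, 13.44 and 13.54. All KO e7 arrays of Hspa5 were below all KO mock arrays, while the WT groups overlapped. Without WT e7 arrays 2 and 3 the list median was -0.44 and 19 members were below 0.

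NADPH oxidase genes were mostly above 0. Of 12 listed, Cybb included, 8 were measured and 7 were above 0 (median 0.80; 5 with an unadjusted p under 0.05). Cybb itself had a difference of 0.73 ± 0.41 (adjusted p = 0.368). Cyba encodes p22phox, the partner of gp91phox in the membrane, and read 13.12, 13, 13.13 and 12.88 on WT mock, 12.58, 11.66, 10.83 and 13.15 on WT e7, and 13.08 to 13.45 on the 6 KO arrays. WT e7 array 4 was the highest of the WT arrays and array 3 the lowest by far. The difference of Cyba was 1.0 ± 0.37 (limma, adjusted p = 0.15), and those of Ncf4, a cytosolic subunit, and Rac2, the GTPase of the complex, were 0.93 ± 0.34 (adjusted p = 0.147) and 1.45 ± 0.40 (adjusted p = 0.0751). Without WT e7 array 4 Cyba, Ncf4 and Rac2 passed, at 1.37, 1.16 and 1.78, and without WT e7 array 3 the difference of Cyba was 0.59. Without WT e7 arrays 2 and 3 the list median fell to 0.26, with 7 of 8 still above 0.

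Cell cycle and replication genes were above 0 for 25 of 28 measured members (median 0.45; 10 with an unadjusted p under 0.05). In WT 7 of the 28 fell, where 11.4% of all genes did, and in KO 0 passed the test. Mcm2, of the replicative helicase, differed by 1.69 ± 0.48 (adjusted p = 0.0766), Mcm3 by 1.40 ± 0.39 (adjusted p = 0.0751) and Bub1b, a kinase of the spindle checkpoint, by 1.07 ± 0.26 (adjusted p = 0.061; 0.0316 with the floor). Bub1b read 10.06, 10.06, 9.92 and 10.27 on WT mock, 9.51, 9.13, 8.6 and 9.82 on WT e7, 9.85, 9.77 and 9.94 on KO mock and 10.04, 10.11 and 10.17 on KO e7 arrays, with no overlap between mock and e7 in either genotype. Mcm2, Mcm3 and Bub1b passed without WT e7 array 4, at 1.99, 1.62 and 1.25, and the last 2 also without WT e7 array 1. Without WT e7 arrays 2 and 3 the list median was 0.33, again with 25 above 0. The mitochondrial respiratory chain had 19 of 27 above 0 (median 0.17), and Ndufs1, a core subunit of complex I, differed by 0.65 ± 0.18 (adjusted p = 0.0741; 0.0409 with the floor; 0.0114 without WT e7 array 4). Without those arrays the mitochondrial median was 0.04, with 14 above 0.

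**Figure D4:**
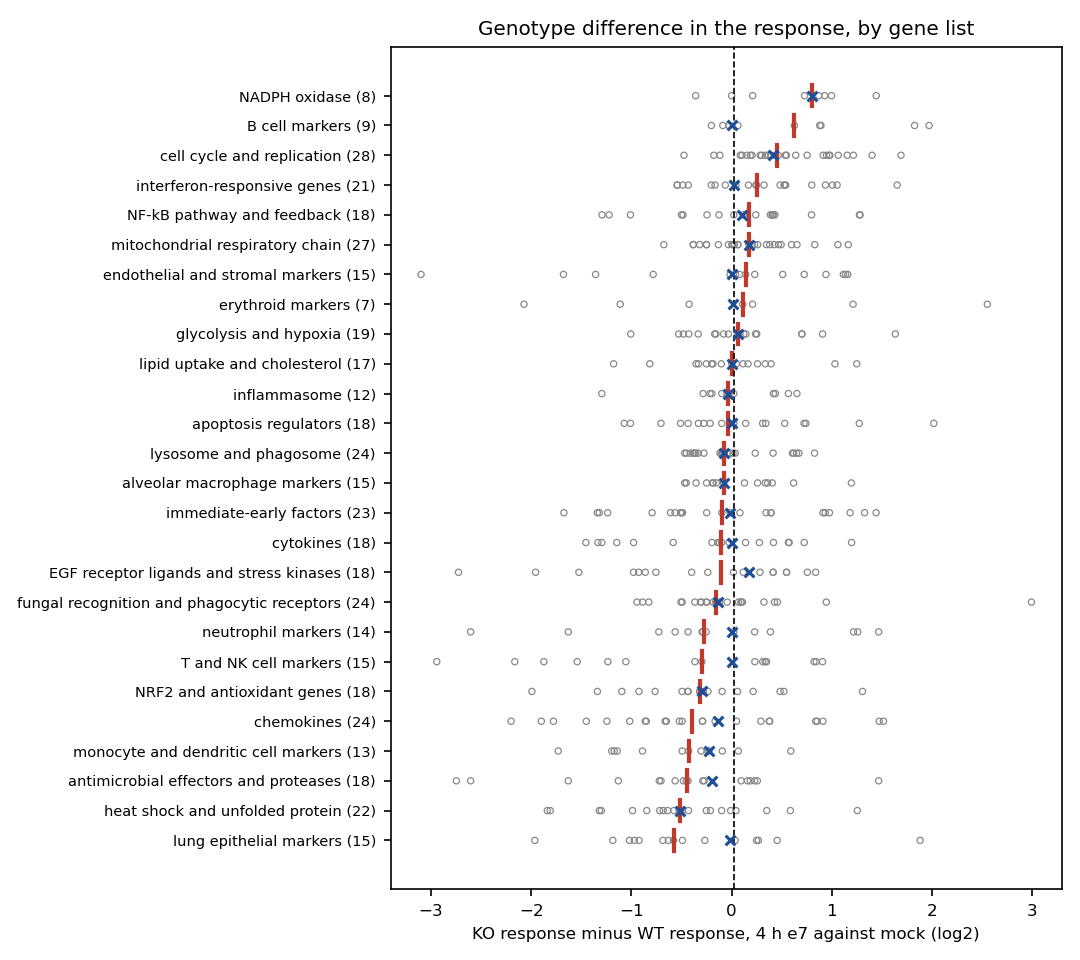
Each row is a gene list with its number of measured members; circles are the members' log2 differences between the genotypes in the 4 h e7 response, red bars the medians and blue crosses the medians with signals under 50 set to 50. The dashed line is the median of all genes, 0.02; NADPH oxidase (0.80) and cell cycle genes (0.45) lie to its right under both, heat shock and unfolded protein genes (-0.52) to its left, and for lists of dim markers the bar and the cross part.

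Lists of other cell types held no call. The medians were -0.27 for 14 neutrophil markers, -0.43 for 13 monocyte and dendritic cell markers, -0.30 for 15 T and NK cell markers, 0.63 for 9 B cell markers and -0.58 for 15 lung epithelial markers. With the floor they were 0, -0.23, 0, 0 and -0.02. Without WT e7 arrays 2 and 3 they were 0.66, -0.89, -0.35, 0.29 and -0.83, so the neutrophil median changed sign. With the 3' to 5' ratio as a covariate they were 0.165, -0.595, -0.25, 0.63 and -0.57. As reported, 8, 11, 8, 3 and 10 members of these lists were below 0, against 48.8% of all genes. S100a8, an abundant neutrophil protein, had a difference of -0.43 with a 95% interval from -3.29 to 2.42, and read 13.75 on WT mock array 3 and 12.45 on WT e7 array 3 against 7.33 to 8.47 on the other WT arrays. Its difference was -1.995 without that mock array and 0.62 without that e7 array. The median for 15 alveolar macrophage markers was -0.08 under both treatments of low signals.

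The genotypes already differed under mock, as the KO mock arrays were above the WT mock arrays at 683 probe sets and below at 236 (919 called, 4.06%). Under e7 conidia they differed at 3520 (15.6%), 2298 higher and 1222 lower in KO. With quantile normalization these splits were 434 and 331 under mock and 1503 and 1510 under e7, and the split of the genotype difference in the response was 21 above and 30 below 0. The mock count was 528 without WT mock array 1 and 494, 407 and 557 without KO mock arrays 1 to 3. The e7 count was 2071, 1563 and 5325 without WT e7 array 2, 3 or 4, and 2346, 1707 and 2336 without KO e7 arrays 1 to 3. Of the 43 probe sets, 8 were called under mock and 39 under e7. The arrays are the same ones that gave the difference in response, so these counts describe where it came from.

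At 2 h the same contrast with e7 conidia (14 arrays, none shared) gave 327 called probe sets (1.45%), and 1 of the 43 was among them, a probe set of Dctn4 with the opposite sign at 2 h (-0.95 against 1.38). With signals under 50 set to 50 the 2 h count was 511, 423 above and 88 below 0. The 3' to 5' ratio was 2.09 to 4.85 on the WT 2 h e7 arrays and 1.45 to 3 on those of KO, against 0.93 to 1.47 and 0.92 to 1.22 on the 2 h mock arrays. At 26 of the 43 the 2 h difference had the same sign as at 4 h (60.5%), where 47.7% of all probe sets had. The change of the difference from 2 h to 4 h was called at 128 probe sets (0.566%), 23 higher and 105 lower at 4 h; with quantile normalization it was 32 and 40. The count was 163 with the 3' to 5' ratio as a covariate and 45 without WT e7 arrays 2 and 3. It was 1198 without WT e7 array 4, 75, 205 and 44 without KO mock arrays 1 to 3, and 280, 38 and 67 without KO e7 arrays 1 to 3. Of the 43, 6 passed this test as well. Klhl21 had a 2 h difference of 0.00 and a change of -2.46 ± 0.58 from 2 h to 4 h (limma, adjusted p = 0.0365). Orai1 went from 0.45 at 2 h to -1.52 (change -1.97 ± 0.37, adjusted p = 0.0135), Midn from 0.70 to -1.88 (-2.58 ± 0.53, adjusted p = 0.0148), and Hyou1 from 1.03 to -2.09 (-3.13 ± 0.64, adjusted p = 0.0148). The other 2 were probe sets of Dctn4 and Ensa that are not the brightest of their genes, named after their values were seen. For Procr the 2 h difference was -0.55 and the change did not pass (adjusted p = 0.155).

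With e6 conidia at 4 h, against the same mock arrays, the genotype difference in the response was called at 1 probe set (0.00442%), which carries no gene symbol. With signals under 50 set to 50 it was called at 420 of 22626 probe sets, 391 above and 29 below 0. The count for e7 with that floor was 274, 143 above and 131 below. The 3' to 5' ratio on the e6 arrays was 1.29 to 4.75 in WT and 1.83 to 3.99 in KO. The difference between e7 and e6 in it, from which the mock arrays drop out, was called at 1327 probe sets (5.86%), 774 above and 553 below 0, and at 36 of the 43. The count was 205 with the 3' to 5' ratio as a covariate, 8 without WT e7 arrays 2 and 3, and 3 with only the groups of this contrast in the fit (Tbca, Crat and Tm4sf1, named after their values were seen). It was 481, 366 and 3738 without WT e7 array 2, 3 or 4, and 275 and 745 without KO e7 array 2 or 3. Both contrasts hold the e7 arrays that chose the 43. Klhl21 had a difference of 0.12 with e6 and -2.46 with e7 (change -2.58 ± 0.41, limma, adjusted p = 0.00121), and Orai1 one of 0.00 and -1.52 (adjusted p = 0.00396). Ereg was otherwise: its difference was -1.68 with e6 and -1.96 with e7, and the change of -0.27 ± 0.52 did not pass (adjusted p = 0.79).

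The WT e7 arrays carried the widest spread. Of the 43, 35 (81.4%) had their largest SD of the 4 groups there, against 45.9% of all probe sets. In 38 of the 43 WT e7 array 4 was the one nearest the WT mock mean, as it was in 9057 of all 22626 probe sets. The median SD on the WT e7 arrays was 0.54, above the median of 0.31 after pooling 15 groups, so the errors given are smaller than this group's own spread would give. Fitted on the 14 arrays alone, the genotype difference had 0 calls, with 2252 at an unadjusted p under 0.05. Without WT e7 arrays 2 and 3 it had 1, a probe set of Ptprk that was outside the 43 and is named after its values were seen. All 43 kept their sign without those arrays, with a median of 0.725 of their size.

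Leaving out 1 array at a time moved the count by over 1.5 times in every case. It was 6, 8, 11 and 9 without WT mock arrays 1 to 4, and 220, 5, 6 and 2389 without WT e7 arrays 1 to 4. It was 14, 14 and 5 without KO mock arrays 1 to 3, and 28, 7 and 6 without KO e7 arrays 1 to 3. Klhl21, Procr and Orai1 passed in all 14 of these fits, Gdap10 in all but that without KO mock array 3, and Aloxe3 in all but those without WT e7 array 2 or 3. The other named genes each lost the call in 8 to 12 of the 14, and none of the 24 changed sign. With the 3' to 5' ratio as a covariate 5 probe sets were called, those of Klhl21, Gdap10, Procr and Orai1 below 0 and one of Dctn4 above.

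**Figure D5:**
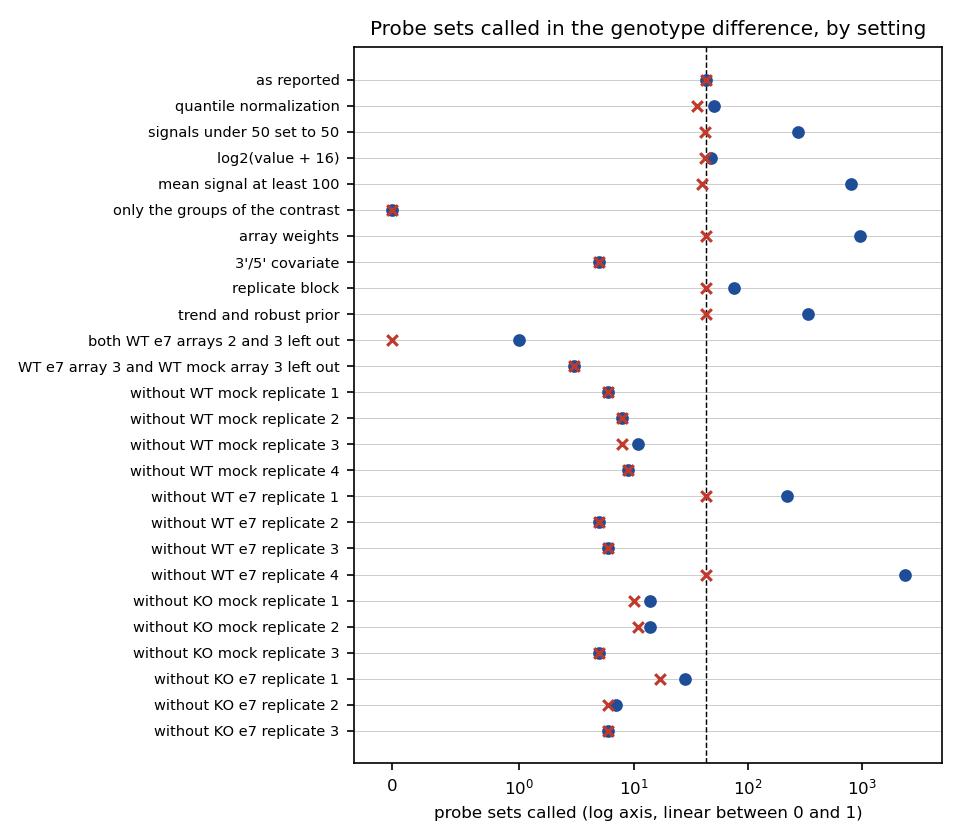
Blue points give the number of probe sets called in the genotype difference under each setting, on a log axis that is linear between 0 and 1, and red crosses how many of the 43 called as reported were among them; the dashed line is 43. The counts run from 0 with only the 14 arrays in the fit to 2389 without WT e7 array 4.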

How the data were processed

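The authors deposited 1 linear signal intensity per probe set and array. It came from Affymetrix mouse arrays hybridized with biotin-labelled cRNA made from 100 ng of total RNA, per the labels' protocols. GCOS and RMA are named in the submitters' processing notes, with neither version nor role. The mean of each of the 14 arrays was 500.2 with 2% trimmed at each end, which scaling per array would give. The genome build behind the probe sets is not given in the sources used here.

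Of 22690 probe sets, 64 controls were left out. Signals were taken to log2 with no offset. The model was limma 3.58.1 (functions lmFit, contrasts.fit and eBayes, run under R 4.3.3), with a mean for each of 15 groups over all 51 arrays. Two-sided p-values were adjusted by Benjamini-Hochberg over 22626 probe sets, and an adjusted p under 0.05 counted as a call. The same model was fitted with signals under 50 set to 50. An error after ± is the standard error from this model. A gene was the probe set with exactly 1 symbol in the platform annotation and the highest mean over the 51 arrays (12393 genes; 20380 probe sets had 1 symbol, 691 several and 1555 none).

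Genes named were the 12 largest differences in each direction among called genes, up to 12 more in each direction called with the floor at 50, members of 26 gene lists written from general knowledge, and Cybb. The arrays, lists and rules were chosen with earlier results of these data known. Alternatives were quantile normalization, the floor, an offset of 16, a filter on mean signal under 100, the 14 arrays alone, array weights, the 3' to 5' ratio as covariate, the replicate number as block, a trended robust prior, and arrays left out. The model was run on simulated data with the same spread in all groups, which cannot test the effect of the wider spread of the WT e7 arrays.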

Additional observations from a re-analysis of the deposited data

Results flagged for a closer look

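The change from mock to e7 conidia at 4 h differed between the genotypes, by the test of that difference, for 24 named genes. Above 0 these were Dapk3 (2.23), Eri3 (1.94), Tubgcp2 (1.92), Letmd1 (1.77), C1ra (1.59), Aloxe3 (1.56), Plekhn1 (1.55), Rab1b (1.52), Psmd8 (1.52), Actr8 (1.48), Mybbp1a (1.35) and Scfd1 (1.22). Below 0 they were Klhl21 (-2.46), Gdap10 (-2.25), Hyou1 (-2.09), Midn (-1.88), Procr (-1.86), Msl1 (-1.80), Orai1 (-1.52), Prpf38b (-1.52), Tardbp (-1.30), Ascc2 (-1.25), Nampt (-1.15) and Eif4a2 (-1.13), all as log2 differences.

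Single WT arrays lay far from the others of their group in 14 of 162 groups of 4 arrays looked at, where chance gives about 1 in 20. WT mock array 3 was high for 8 genes, with log2 signals of 13.86 for Cxcl2, 12.29 for Ccl3, 10.04 for Ccl4, 13.45 for Il1b, 12.03 for Nfkbiz, 10.79 for Egr1, 12.22 for Clec4e, a receptor for fungal glycolipids, and 13.75 for S100a8. On the same array the mean of the neutrophil markers was 8.39. The other such values were 11.1 for Nampt on WT mock array 2, 10.31 for Mcm2 and 10.44 for Dnajb1 on WT mock array 4, 5.61 for Plekhn1 and 12.45 for S100a8 on WT e7 array 3, and 10.01 for Cflar on WT e7 array 4.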

How the results depend on the processing

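Genes named here beside a small count were chosen after their values were seen. Counts of called probe sets moved widely, and the cause was not tested. For the genotype difference in the 4 h e7 response (43 as reported) the count was 51 with quantile normalization, 48 with an offset of 16, 274 with the floor at 50, 799 among probe sets with a mean signal of at least 100, 968 with array weights, 336 with a trended robust prior, 5 with the 3' to 5' covariate (Gdap10, Procr, Dctn4, Orai1 and Klhl21), and 0 with only the 14 arrays in limma (2252 at an unadjusted p under 0.05). Without WT e7 arrays 2 and 3 it was 1 (a probe set of Ptprk, not among the 43), without WT e7 array 3 and WT mock array 3 it was 3 (Klhl21, Procr and Tubgcp2), and with any 1 array left out it ran from 5 to 2389. None of the 43 changed sign under these settings, with 40 of them tested under the filter on mean signal. The replicate block gave 76, but the replicate numbers do not pair the arrays: deviations of same-numbered arrays of different groups correlated between -0.08 and 0.08 (19 pairs), and 3 of 12 arrays correlated best with their own number. The block moved no other count by over 1.5 times.

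WT e7 against mock (3512) gave 0 with only its groups in limma (3443 at an unadjusted p under 0.05), 204 without WT e7 arrays 2 and 3, 1064 without both arrays 3, and 1622 to 5305 with 1 array left out. KO e7 against mock (1) gave 7 with quantile normalization, 71 with the floor, 3 with the offset, 34 with array weights, 3 with the robust prior, 2 without both WT arrays 3, 0 with only its groups in limma (1774 at an unadjusted p under 0.05), and 1 to 13 with 1 array left out. Cxcl1 was called beside Man2c1os with the robust prior and without both WT arrays 3, and without Man2c1os under the offset (with Gja5 and an unnamed probe set) and the filter. KO against WT under mock (919) gave 597 with the filter on mean signal, 127 with only its groups, 1549 with array weights and 407 to 1065 with 1 array left out. Under e7 (3520) it gave 8 with only its groups, 2147 with the covariate, 479 without WT e7 arrays 2 and 3, 1505 without both arrays 3, and 1563 to 5325 with 1 array left out.

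The change of the difference from 2 h to 4 h (128) gave 72 with quantile normalization, 387 with the floor, 410 with the offset, 70 with the filter, 55 with only its groups, 947 with array weights, 45 without WT e7 arrays 2 and 3, 83 without both arrays 3, and 38 to 1198 with 1 array left out. The change from e6 to e7 (1327) gave 2801 with the floor, 2149 with the filter, 3 with only its groups (Tbca, Crat and Tm4sf1), 2345 with array weights, 205 with the covariate, 8 without WT e7 arrays 2 and 3, 275 without both arrays 3, and 275 to 3738 with 1 array left out. Of 57 named genes not called in the difference, 4 changed sign somewhere. Il1a (-0.02) was at 0.079 with array weights and 0.121 without WT e7 arrays 2 and 3, and ran from -0.39 to 0.221 with 1 array left out. Clec7a (-0.12) was at 0.164 with quantile normalization and 0.08 without those arrays. S100a8 (-0.43) was at 0.299 with the covariate and 0.741 without those arrays, and ran from -1.995 to 0.621, and Ccl4 (-0.29) ran from -1.351 to 0.153 with 1 array left out.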
